A study of Mus musculus with 6 samples.

Results

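The matrix metalloproteinases Mmp2, Mmp3, Mmp8, Mmp9, Mmp12, Mmp13, Mmp14 and Mmp19 and the inhibitors Timp1 and Timp2 were followed across the cell classes of B16-F10 tumors, a transplanted mouse melanoma. These 10 genes were matched by symbol among the 32285 genes of the deposited feature list, and each symbol had 1 row. The cells were CD45+ cells, isolated with magnetic beads from dissociated and cryopreserved tumors of female C57BL/6 mice aged 6 to 10 weeks. Mice of the αPD-1 group received 150 μg of antibody to the checkpoint receptor PD-1, 3 times per week from day 7 after tumor injection. Mice of the αPD-1 + corin group received the same antibody and in addition 200 μg of corin, an inhibitor of the CoREST complex, daily from day 6. Each group gave 3 samples. There were 10 mice per arm, but how these relate to the samples is not given in the labels, so that the p values measure the spread between these samples, which may be technical. The antibody was common to both groups, and untreated tumors or tumors given corin alone are not analysed here.

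Matrix metalloproteinases are zinc-dependent endopeptidases that cleave collagens, elastin and other proteins outside the cell, and most of them are secreted as inactive precursors. Tissue inhibitors of metalloproteinases (TIMPs) block the active site in a tight complex with the enzyme, and Timp2 also takes part in the activation of pro-Mmp2 at the cell surface by the membrane-anchored enzyme Mmp14. Fibroblasts, macrophages and neutrophils are well-known sources of these proteins, and neutrophils carry Mmp8 and Mmp9 as stored granule enzymes.

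Mmp13, Mmp12, Mmp3 and Mmp8 lie in this order within 296.0 kb of mouse chromosome 9 (chr9:7272514-7568487, GRCm39), all on the plus strand. The other members are on other chromosomes, Mmp2 at chr8:93553902-93580049, Mmp9 at chr2:164780439-164797771, Mmp14 at chr14:54668878-54682821, Mmp19 at chr10:128626773-128636695, Timp1 at chrX:20736316-20740976 and, on the minus strand, Timp2 at chr11:118191887-118246566. The 4 promoters of the chromosome 9 group are shown because these neighbors had unlike patterns over the cell classes, as described below. Each sequence runs 5′ to 3′ from 250 bases before the annotated start of the Ensembl canonical transcript (GENCODE vM39) and includes the first 30 transcribed bases, and capitals mark the letters of the 2 motifs searched that were found.

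Mmp13 (chr9:7272264-7272543, plus strand): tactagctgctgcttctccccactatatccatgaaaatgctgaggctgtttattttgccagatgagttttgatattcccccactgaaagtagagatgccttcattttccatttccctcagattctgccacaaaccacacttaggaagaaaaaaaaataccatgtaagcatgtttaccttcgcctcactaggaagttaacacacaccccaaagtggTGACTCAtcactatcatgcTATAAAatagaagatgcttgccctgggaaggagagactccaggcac
Mmp12 (chr9:7347124-7347403, plus strand): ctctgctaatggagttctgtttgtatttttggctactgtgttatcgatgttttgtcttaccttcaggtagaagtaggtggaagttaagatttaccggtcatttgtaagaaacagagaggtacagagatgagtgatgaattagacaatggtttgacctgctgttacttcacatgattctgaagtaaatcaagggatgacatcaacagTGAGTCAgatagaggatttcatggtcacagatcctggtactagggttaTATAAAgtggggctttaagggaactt
Mmp3 (chr9:7445572-7445851, plus strand): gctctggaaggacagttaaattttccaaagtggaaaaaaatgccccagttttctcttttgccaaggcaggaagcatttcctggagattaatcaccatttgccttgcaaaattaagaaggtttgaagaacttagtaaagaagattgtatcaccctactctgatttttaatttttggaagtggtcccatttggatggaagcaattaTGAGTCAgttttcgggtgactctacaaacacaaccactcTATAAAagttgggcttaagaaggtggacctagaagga
Mmp8 (chr9:7558207-7558486, plus strand): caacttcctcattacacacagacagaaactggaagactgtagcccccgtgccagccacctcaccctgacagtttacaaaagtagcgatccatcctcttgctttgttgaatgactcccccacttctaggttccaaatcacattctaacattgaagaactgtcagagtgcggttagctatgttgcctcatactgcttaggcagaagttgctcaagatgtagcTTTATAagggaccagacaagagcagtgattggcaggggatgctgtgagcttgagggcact

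The AP-1 site was searched as TGANTCA and the TATA box as TATAAA, each on both strands, and the motifs did not overlap in these windows. TGANTCA was present upstream of Mmp13, Mmp12 and Mmp3 and absent from the Mmp8 window, where the capitals are TATAAA read on the other strand. All 4 windows held TATAAA. Counted from the annotated start, it began at -16 for Mmp13, 4 for Mmp12, -7 for Mmp3 and -30 for Mmp8. The match for Mmp12 thus lay within the transcribed bases. Among the 10 members TGANTCA was also found for Mmp9 and Mmp19, and TATAAA for no further member. Of 21770 promoter windows of the same length, 6.84% held TGANTCA and 12.7% held TATAAA. One further motif, ACGTG, the core of the hypoxia response element, was found only for Timp1 among the members and in 19.3% of all windows. A match is a match of letters, and binding was not measured.

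The deposited matrices held 6433 to 7000 barcodes with αPD-1 and 9637 to 13228 with αPD-1 + corin, with 52281422 to 84276739 UMIs (unique molecular identifiers, counts of captured transcripts) per sample. Any 2 libraries shared 10 to 32 barcodes. After filters on genes and mitochondrial UMIs and removal of doublets, 28865 cells were left, 3663 to 7860 per sample, in 25 clusters named from marker lists. Fibroblast-like, melanoma-like and endothelial-like clusters were present although the cells had been selected for CD45. Levels are given as CPM, the UMIs of a gene over all UMIs, scaled to 1e6, summed over the cells of a class in a sample. The reads come from the 5′ end of transcripts, and levels are compared between cells and samples and not between genes. Of the UMIs of a member in all barcodes, the cells kept held between 26.1% for Mmp14 and 75.3% for Mmp13. The values for Mmp14 (26.1%), Timp2 (32.5%) and Timp1 (34.2%) were the lowest, and the limit of 4000 genes per cell, taken from the study, bears on them as described for each.

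In the cells kept, each member had its highest mean level in fibroblast-like cells, in neutrophils or in a macrophage cluster. The shares of UMIs by cell class did not always follow these levels. For Mmp8, Mmp9, Mmp14 and Timp2 the shares depended on single samples or on the limit on genes per cell. So did the neutrophil shares of Mmp12 and Mmp13 and the fibroblast-like share of Mmp19. These patterns are descriptions, with no test, since cells of a class share libraries and clusters. The members themselves were left out of the genes used for clustering.

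**Figure D1:**
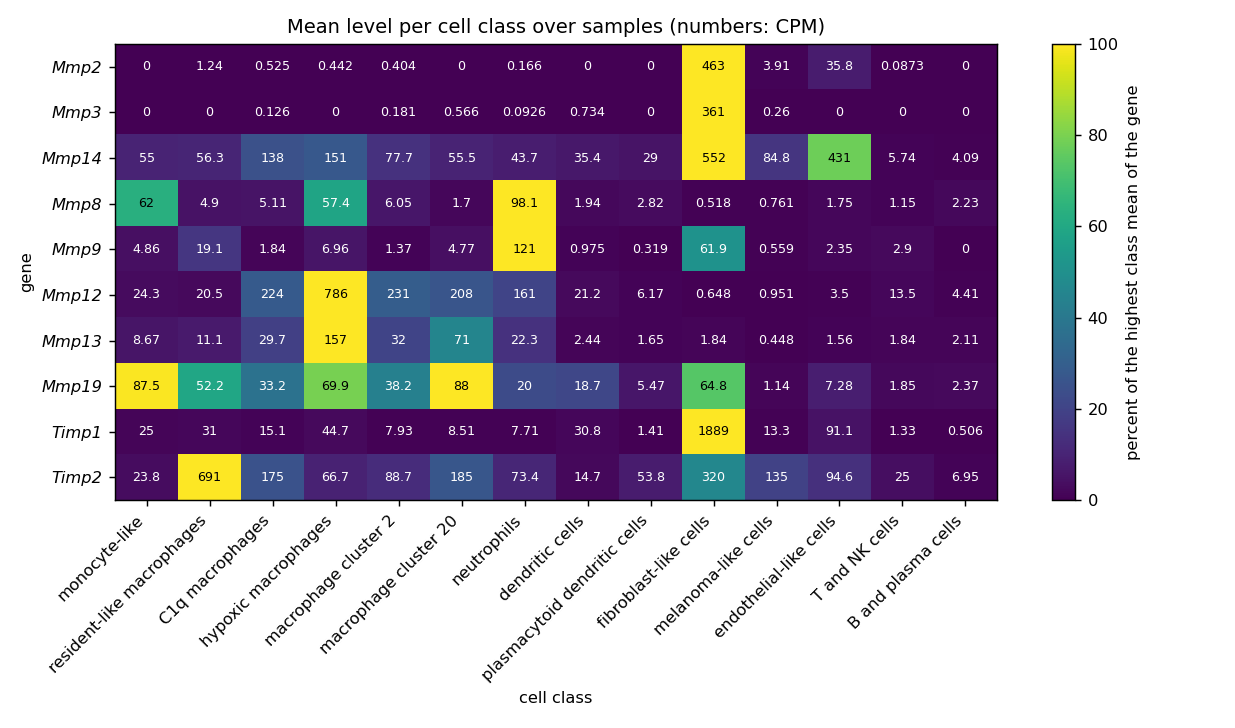
Mean level of each member (rows) in each cell class (columns) over 6 samples, with the mean CPM printed in each field and the color giving it as a percent of the highest class mean of that gene. Mmp2, Mmp3 and Timp1 stand out in fibroblast-like cells, Mmp12 and Mmp13 in hypoxic macrophages, Timp2 in resident-like macrophages, and Mmp8 and Mmp9 in neutrophils.

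Mmp2, a gelatinase, and Mmp3 (stromelysin-1), which cleaves a broad range of matrix proteins and activates other metalloproteinases, were genes of the fibroblast-like cells. That cluster was led by Col3a1, Dcn and Col1a1 and had all 8 fibroblast markers. It held 97.2% of the Mmp2 UMIs and 99.3% of the Mmp3 UMIs of the cells kept. Mmp2 was at 463 ± 142 CPM there (SD, n = 6 samples, 277 to 603), above endothelial-like cells at 35.8 ± 23.2 CPM in every sample. Melanoma-like cells had 3.91 ± 3.40 CPM of Mmp2. Mmp3 was at 361 ± 187 CPM in fibroblast-like cells (181 to 669), and the next class, dendritic cells, had 0.734 ± 1.45 CPM. With each cell thinned to 1000 UMIs, so that depth does not set the share, 30.7% of fibroblast-like cells had a UMI of Mmp2 and 18.3% had one of Mmp3. In T and NK cells, which serve as a background of free RNA at medians of 1807 to 3307 UMIs per cell, the share for Mmp2 was 0.0112%. No UMI of Mmp3 was counted there, which allows up to 0.460 to 5.78 CPM in a sample. Without thinning, at medians of 7030 to 9217 UMIs per fibroblast-like cell, they were 72.6% and 31.3% in fibroblast-like cells.

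Timp1, a secreted inhibitor of most matrix metalloproteinases, had 90.3% of its UMIs in fibroblast-like cells and was among the leading genes of that cluster. Its level there was 1889 ± 1285 CPM, with a lowest sample of 632 and a highest of 3521 CPM, so that the samples differed widely. Endothelial-like cells followed at 91.1 ± 40.3 CPM, and hypoxic macrophages at 44.7 ± 24.5 CPM overlapped with them. The endothelial-like cluster also carried the pericyte genes Rgs5 and Acta2 and had fibroblast markers at a summed level of 2358 to 7180 CPM, against 32774 to 41671 CPM in fibroblast-like cells, and their part in its metalloproteinase levels was not tested. At 1000 UMIs per cell, 47.3% of fibroblast-like cells had a UMI of Timp1, against 0.0852% of T and NK cells. Among the samples, the share of fibroblast-like cells ran from 21.0% to 76.6%. Without the limit of 4000 genes per cell, fibroblast-like cells held 88.3% of the Timp1 UMIs. Melanoma-like cells then held 7.02%, against 0.774% with the limit. Without αPD-1 + corin replicate 1 these shares without the limit were 83.3% and 11.3%.

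Mmp14 (MT1-MMP), the membrane-anchored collagenase, was the most widely spread member. Over all samples its UMIs divided between fibroblast-like cells (40.6%), monocytes and macrophages (36.8%) and melanoma-like cells (7.66%). The first share rested on αPD-1 + corin replicate 1, which gave 3873 of the 5333 Mmp14 UMIs in fibroblast-like cells. In that sample fibroblast-like cells held 57.5%, and in each of the others 19.0% to 26.5%, below monocytes and macrophages at 36.3% to 62.1%. Without it the order turned, with 22.8% in fibroblast-like cells and 46.3% in monocytes and macrophages. Fibroblast-like cells were at 552 ± 185 CPM and endothelial-like cells at 431 ± 133 CPM, and these neighbors in the order overlapped. Both were above hypoxic macrophages at 151 ± 24.5 CPM, which overlapped with C1q macrophages at 138 ± 24.5 CPM. Melanoma-like cells were at 84.8 ± 23.3 CPM, and T and NK cells at 5.74 ± 3.45 CPM. The division of Mmp14 depended on the upper limit on genes per cell. With no such limit, 36483 cells were kept, and melanoma-like cells then held 56.4% of the Mmp14 UMIs and fibroblast-like cells 24.4%, or 66.0% and 15.0% without αPD-1 + corin replicate 1.

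Timp2, the inhibitor that pairs with Mmp14, was highest in resident-like macrophages, a cluster led by Lyve1, Fcna, Cbr2 and Folr2. Its level there was 691 ± 159 CPM (407 to 846), overlapping with fibroblast-like cells at 320 ± 94.0 CPM (194 to 417). Monocytes and macrophages as a whole held 66.9% of its UMIs, and resident-like macrophages alone held 48.1%, or 30.6% without αPD-1 + corin replicate 1. After thinning, 40.5% of resident-like macrophages had a UMI of Timp2, against 13.9% of C1q macrophages and 2.72% of T and NK cells. Without the upper limit on genes, melanoma-like cells held 56.7% of the Timp2 UMIs and monocytes and macrophages 25.5%, or 68.8% and 14.9% without that sample. In that setting melanoma-like cells were at 129 to 172 CPM of Timp2 and 105 to 138 CPM of Mmp14.

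**Figure D2:**
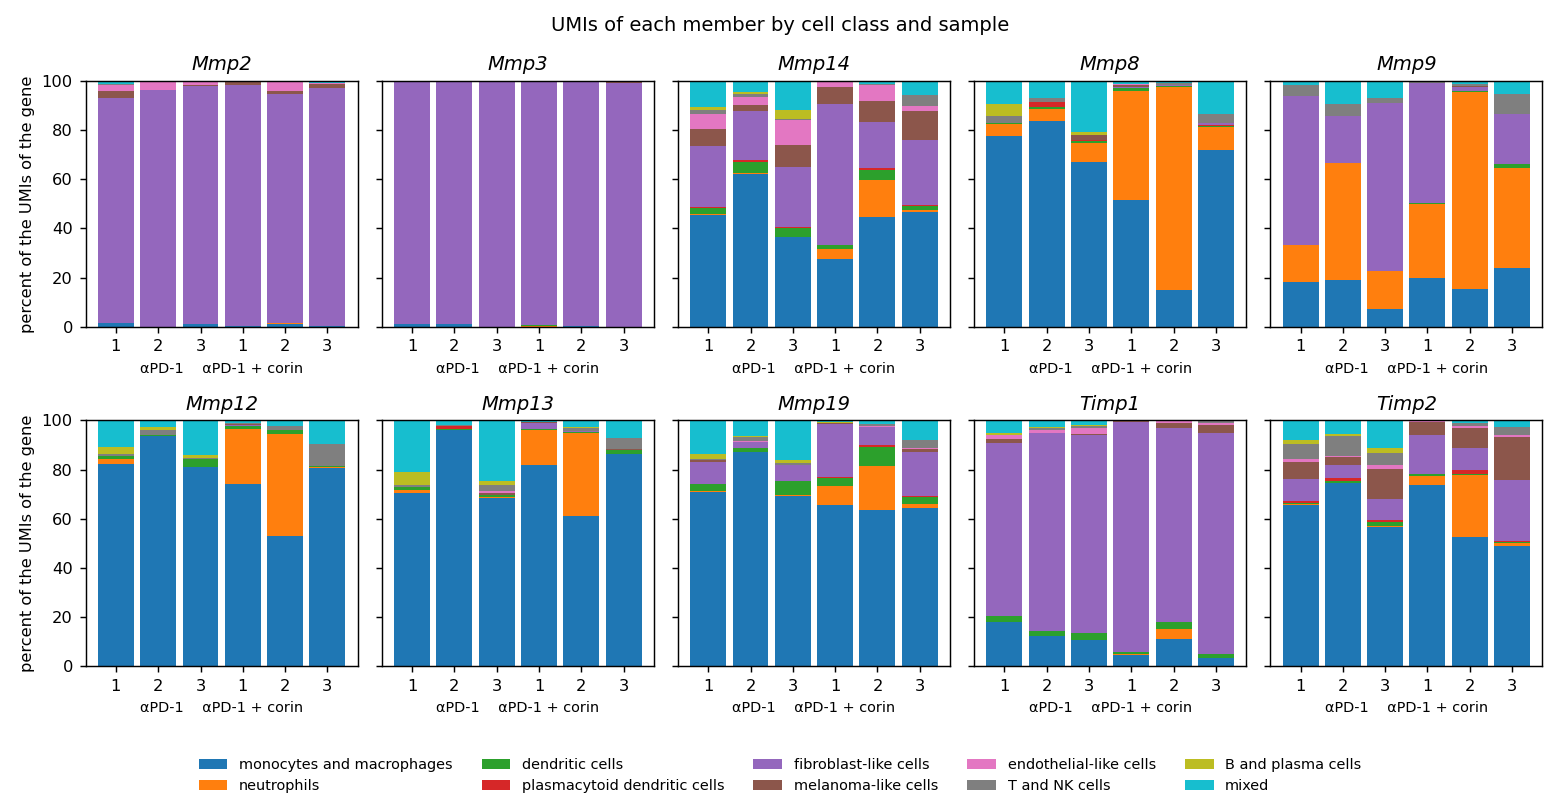
Percent of each member's UMIs that lay in each cell class, stacked to 100%, with 1 bar per sample, 3 for αPD-1 and 3 for αPD-1 + corin. Mmp2, Mmp3 and Timp1 UMIs lay mostly in fibroblast-like cells, Mmp12, Mmp13, Mmp19 and Timp2 mostly in monocytes and macrophages, and the shares of neutrophils in the Mmp8 and Mmp9 bars run from 4.68% to 82.5% and from 15.2% to 80.2%, highest in αPD-1 + corin replicate 2.

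Mmp8 (neutrophil collagenase) and Mmp9 (gelatinase B) were highest in neutrophils. The 2 neutrophil clusters had all 9 neutrophil markers, and 1 of them, which held most of the neutrophils in all 6 samples, also carried transcripts of macrophages. In the neutrophil class the monocyte and macrophage markers were at a summed level of 2538 to 4525 CPM with αPD-1 and 4351 to 7051 CPM with αPD-1 + corin. Neutrophils were at 98.1 ± 48.9 CPM of Mmp8, overlapping with monocyte-like cells at 62.0 ± 18.2 CPM and these with hypoxic macrophages at 57.4 ± 23.3 CPM. The other macrophage clusters were lower, at 6.05 ± 3.67 CPM or less. Over all samples neutrophils held 50.1% of the Mmp8 UMIs and monocytes and macrophages 42.3%. This order came from αPD-1 + corin replicate 2, with 770 of the 1084 Mmp8 UMIs in neutrophils. In each of the other samples monocytes and macrophages held more, 51.5% to 83.7% against 4.68% to 44.4%, and without that sample the shares were 25.5% in neutrophils and 63.0% in monocytes and macrophages. Mmp9 was at 121 ± 38.5 CPM in neutrophils and 61.9 ± 52.5 CPM in fibroblast-like cells, which overlapped. These classes held 53.2% and 26.6% of the Mmp9 UMIs over all samples, but 29.5% and 48.5% without αPD-1 + corin replicate 2, which gave 1033 of the 1465 UMIs in neutrophils. Fibroblast-like cells held more Mmp9 than neutrophils in αPD-1 replicates 1 and 3 and αPD-1 + corin replicate 1, at 60.6%, 68.4% and 48.8%. Most of the fibroblast-like UMIs came from the last of these samples, and without it the shares were 72.8% in neutrophils and 7.78% in fibroblast-like cells. Resident-like macrophages held 12.5% of the Mmp9 UMIs, at 1.55 to 66.2 CPM. With 1000 UMIs per cell, 7.43% of neutrophils had a UMI of Mmp8 and 10.1% had one of Mmp9, against 0.0489% and 0.437% of T and NK cells. The smaller neutrophil cluster, almost absent from the αPD-1 samples with 0 to 4 cells each, had a UMI of Mmp9 in 24.5% of cells.

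Without the upper limit on genes, the larger neutrophil cluster counted as mixed, and neutrophils then held 15.6% of the Mmp8 UMIs and 15.0% of the Mmp9 UMIs. Without αPD-1 + corin replicate 2 these shares were 2.04% and 3.00%, and without αPD-1 + corin replicate 1 the share of Mmp9 was 23.7%.

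Mmp12 (macrophage metalloelastase) and Mmp13 (collagenase-3) were genes of macrophages, and their UMIs lay in monocytes and macrophages for 73.8% and 75.9%. By mean level both were highest in hypoxic macrophages, a cluster led by Cxcl3, Spp1, Hilpda and Ndrg1, with Mmp12 itself among its leading genes. Mmp12 was at 786 ± 335 CPM in that cluster, with a lowest sample of 357 CPM. Macrophage cluster 2, unnamed, was at 231 ± 112 CPM (111 to 395) and C1q macrophages, led by MHC class II genes and Cxcl9, were at 224 ± 120 CPM (112 to 443). Macrophage cluster 20, also unnamed and with 23 to 86 cells per sample, was at 208 ± 284 CPM (11.9 to 752). Neighbors in this order overlapped. Monocyte-like cells were at 24.3 ± 15.0 CPM of Mmp12 and T and NK cells at 13.5 ± 11.5 CPM. Mmp13 was at 157 ± 54.7 CPM in hypoxic macrophages (105 to 256), at 71.0 ± 67.7 CPM in cluster 20 (0 to 171) and at 32.0 ± 9.60 CPM in cluster 2. The first of these overlapped with cluster 20, which was the higher in αPD-1 replicate 2 (126 against 110 CPM) and in αPD-1 + corin replicate 2 (171 against 163 CPM). Neutrophils held 16.8% of the Mmp12 UMIs and 14.4% of the Mmp13 UMIs over all samples, beside the macrophage transcripts given above. These shares were 22.7% and 14.4% in αPD-1 + corin replicate 1, 41.7% and 34.0% in replicate 2, and at most 2.07% and 0.990% in the other samples. Without replicate 2 they were 10.4% and 8.03%. With no upper limit on genes no hypoxic class was formed, and C1q macrophages held 47.8% of the Mmp12 UMIs and 39.5% of the Mmp13 UMIs. In that setting monocytes and macrophages as a whole held 66.6% and 67.1%, mixed clusters 25.4% and 23.5%, and neutrophils 1.29% and 0.563%.

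Mmp19, a metalloproteinase of the basement membrane and the stroma, was spread over the monocytes and macrophages, which held 67.6% of its UMIs. Fibroblast-like cells held 14.6%, or 9.33% without αPD-1 + corin replicate 1. Macrophage cluster 20 was at 88.0 ± 77.9 CPM (23.8 to 227), monocyte-like cells at 87.5 ± 18.9 CPM, hypoxic macrophages at 69.9 ± 17.3 CPM, fibroblast-like cells at 64.8 ± 24.4 CPM and resident-like macrophages at 52.2 ± 15.4 CPM. Each of these overlapped with the next, so that no order among them holds beyond the spread. T and NK cells were at 1.85 ± 0.808 CPM.

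In the cells kept, the neighbors on chromosome 9 thus had different classes at the top, fibroblast-like cells for Mmp3, hypoxic macrophages for Mmp12 and Mmp13, and neutrophils with monocyte-like cells for Mmp8. Mmp12 and Mmp13 had alike profiles. Over 75 sums of a sample and a cell class their log2 levels had a correlation of 0.885. Each was the gene nearest to the other among 8727 genes. Among the members, the pairs Mmp2 and Mmp3 (0.936) and Mmp2 and Timp1 (0.892) had higher correlations. In the monocytes and macrophages of the αPD-1 samples, thinned to 1000 UMIs, 60.6%, 45.5% and 41.2% of the cells with a UMI of Mmp13 also had one of Mmp12, against 6.54%, 3.29% and 6.38% of the cells without. In the αPD-1 + corin samples the shares were 41.5%, 36.8% and 29.5% against 6.17%, 7.53% and 5.06%. Cells with a UMI of Mmp13 thus had the higher share in all 6 samples, in both treatments, with 17 to 176 such cells per sample. Within hypoxic macrophages alone, where 5 to 98 cells per sample had a UMI of Mmp13, the shares were 40.0% to 77.8% with Mmp13 and 11.0% to 22.1% without.

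For each of the other members, the genes with the most alike profile over the same 75 sums were named by the same measure, Pearson correlation of log2(CPM + 10). The sums share libraries and clusters, so that the values are descriptions. For Mmp2 they were Loxl1 (0.981), a collagen and elastin crosslinking enzyme, Gpr153 and Srpx2. For Mmp3 they were Sfrp2 (0.995), a secreted Wnt modulator, the fibroblast receptor Pdgfra, which is also a marker of that class, and Dpep1. For Timp1 they were Fap (0.899), a protease of activated fibroblasts, Srpx2 and Mmp2. For Mmp14 they were Tceal8 (0.870), Rai14 and Itpripl2. For Mmp8 they were Trem1 (0.894), an activating receptor of neutrophils and monocytes that is also in the neutrophil marker list, Rhov and the lectin receptor Clec4e. For Mmp9 they were Lcn2 (0.731), the lipocalin that binds Mmp9 protein, G0s2, which is likewise a marker on that list, and Il1rap. Besides each other, Mmp12 was nearest to Atp6v0d2 (0.861), a subunit of the vacuolar proton pump, and Adam8, and Mmp13 to Fcrlb (0.876) and F7, coagulation factor VII. For Mmp19 they were Emilin2 (0.895), Lrp1, the endocytic receptor that clears several metalloproteinases, and Pla2g4a. For Timp2 they were Nfic (0.820), C4b and Plod1. Hypoxia markers include Adam8, so that its place near Mmp12 is not independent of the cluster names.

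The comparison of αPD-1 + corin with αPD-1 used UMI sums per sample and edgeR's quasi-likelihood test with Benjamini-Hochberg adjustment over all genes tested, at a threshold of 0.05. Log2 changes are given as αPD-1 + corin minus αPD-1. The classes differed in size between the groups. The share of fibroblast-like cells was 1.44%, 1.09% and 1.11% in αPD-1 replicates 1 to 3 and 7.79%, 1.93% and 3.13% in αPD-1 + corin replicates 1 to 3. Neutrophils made up 0.481%, 0.464% and 0.464% against 11.1%, 33.0% and 2.22%. Monocytes and macrophages made up 26.9%, 32.2% and 26.4% against 60.2%, 34.2% and 36.3%. Both fibroblast-like cells and neutrophils were thus more frequent in every αPD-1 + corin sample. B and plasma cells were less frequent in each, with 940, 728 and 1170 cells with αPD-1 and 51, 52 and 12 with αPD-1 + corin. So were the mixed clusters, with 888, 496 and 784 against 112, 88 and 299 cells. All cells kept were 4362, 3663 and 4314 against 7860, 3942 and 4724. These shares and numbers stand beside the sums over all cells. In those sums fewer cells of a type and less RNA per cell cannot be told apart.

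In the sums over all cells kept, 3 members were called, all higher with αPD-1 + corin, where 16.1% of the 15676 genes tested were called. Mmp2 was at 9.63, 6.85 and 11.5 CPM with αPD-1 and at 85.6, 16.4 and 31.1 CPM with αPD-1 + corin. The groups did not overlap, and αPD-1 + corin replicate 1 stood highest. The log2 change was 2.35 ± 0.61 (SE, adjusted p = 0.0485). Mmp3 was at 5.44, 4.93 and 9.18 CPM against 34.7, 21.0 and 22.4 CPM, a log2 change of 2.10 ± 0.32 (adjusted p = 0.0178). Its samples did not overlap either, and the 3 αPD-1 + corin samples lay closer together than those of Mmp2. Mmp14 was at 45.6, 48.8 and 60.8 CPM against 202, 94.2 and 82.6 CPM, with a log2 change of 1.39 ± 0.37 (adjusted p = 0.0498). Again no sample overlapped, and αPD-1 + corin replicate 1 stood apart from the other 2. These calls depended on the samples. Leaving out αPD-1 replicate 1 or 2 left none of the 10 called (Mmp3 adjusted p = 0.0899 and 0.0642), and leaving out αPD-1 replicate 3 kept Mmp3 alone, with Mmp2 at 0.135 and Mmp14 at 0.129. Mmp14 was also lost without αPD-1 + corin replicate 2 (0.0692). Without αPD-1 + corin replicate 3, 9 of the 10 members were called, but the share of all genes called then is not given here. Leaving out that sample also raised the count over all genes in monocytes and macrophages, as given below. The 9 calls are therefore not read as particular to the members. When cells above 4000 genes were also kept, Mmp3 was called alone (log2 change 2.40, adjusted p = 0.0252), Mmp2 changed by 1.93 (0.0904) and Mmp14 by 0.55 (0.248).

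The other 7 members were not called in all cells. Mmp19 was at 17.1, 19.9 and 23.7 CPM against 49.6, 33.3 and 24.2 CPM, without overlap, though αPD-1 + corin replicate 3 lay just above αPD-1 replicate 3 (log2 change 0.93 ± 0.29, adjusted p = 0.0723). Mmp9 was at 3.59, 1.26 and 3.42 CPM against 38.0, 64.1 and 2.65 CPM (3.79 ± 1.11, 0.0618). Mmp8 was at 9.30, 6.25 and 9.30 CPM against 18.3, 46.4 and 8.57 CPM (1.68 ± 0.62, 0.101). In both granule enzymes αPD-1 + corin replicate 3, the sample of that group with fewest neutrophils, lay within the αPD-1 range. Timp1 was at 26.8, 26.6 and 54.0 CPM against 494, 139 and 52.2 CPM (2.79 ± 0.84, 0.0660). Timp2 was at 79.0, 89.3 and 68.6 CPM against 345, 145 and 83.0 CPM (1.39 ± 0.51, 0.101). For both inhibitors replicate 3 of the αPD-1 + corin group overlapped with the αPD-1 samples and replicate 1 was highest. Mmp13 was at 16.5, 10.5 and 12.1 CPM against 35.1, 34.4 and 13.3 CPM (1.19 ± 0.41, 0.0895). Mmp12 was at 115, 48.3 and 87.2 CPM against 137, 132 and 64.8 CPM (0.52 ± 0.41, 0.387), with broad overlap. DESeq2 called 9 of the 10 members in these sums, Mmp12 being the one it did not. The share of all genes that DESeq2 called in these sums is not given here, so this count is not read as particular to the members. The median log2 change was 1.54 over the 10 members and 0.03 over all genes tested. How much of these differences came with the shares of the cell classes was not tested on the sums, and the values within classes follow.

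**Figure D3:**
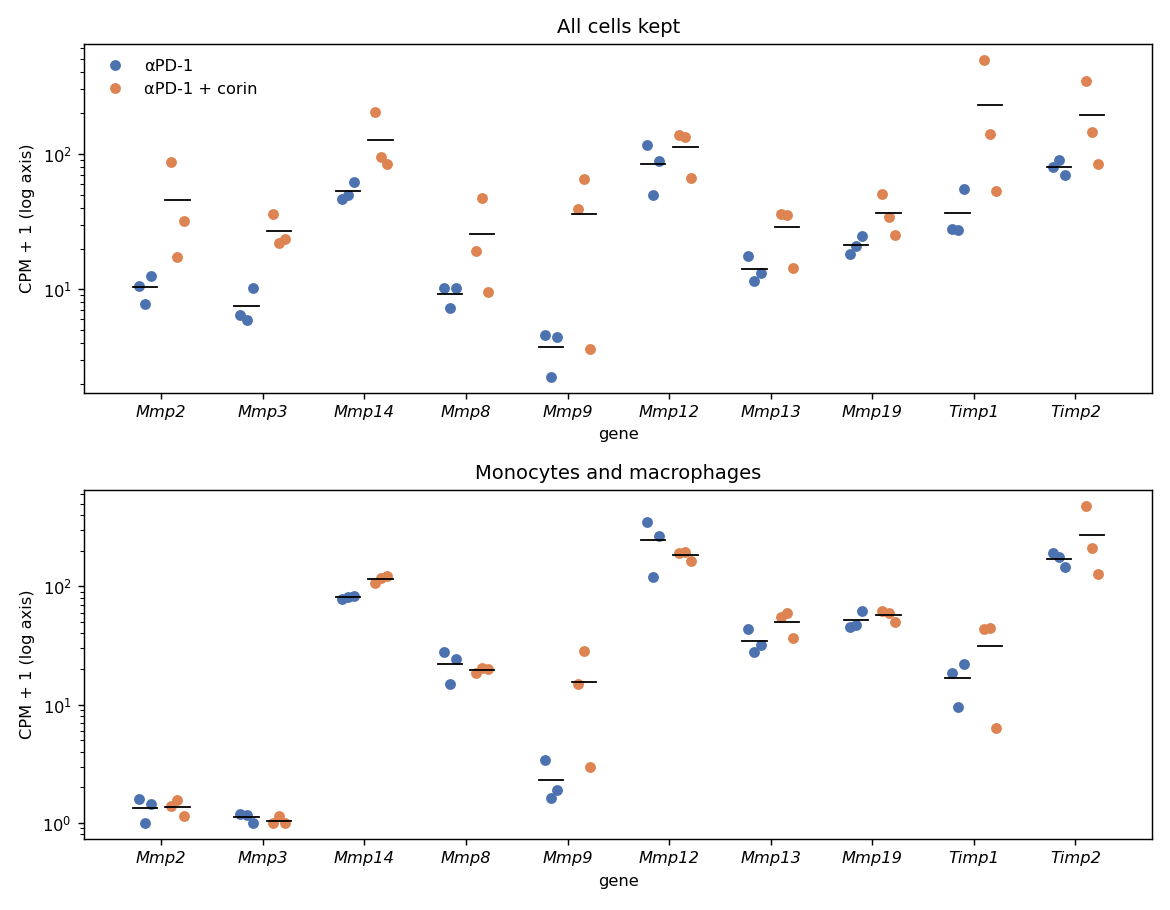
CPM + 1 of each member on a log axis, in all cells kept (upper panel) and in monocytes and macrophages (lower panel), with 1 point per αPD-1 or αPD-1 + corin sample and a black line at the mean of each group. In all cells the 3 αPD-1 + corin samples lie above the 3 αPD-1 samples for Mmp2, Mmp3, Mmp14 and Mmp19, and in monocytes and macrophages this holds for Mmp14 alone. The share of all genes that separate in this way is not given here, so the pattern is not read as particular to the members.

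Within fibroblast-like cells, where Mmp2, Mmp3 and Timp1 had most of their UMIs, none of 7 members tested was called, against 2.45% of 6905 genes (1600 of them with an unadjusted p under 0.05). DESeq2 called none of the members either. Mmp2 was at 297, 277 and 528 CPM with αPD-1 and at 603, 489 and 582 CPM with αPD-1 + corin, and the groups overlapped. Mmp3 was at 181, 204 and 436 CPM against 247, 669 and 429 CPM, and Mmp14 at 377, 406 and 699 CPM against 836, 572 and 424 CPM. In each of these 3 genes αPD-1 replicate 3 lay within the αPD-1 + corin range. Timp1 was at 632, 897 and 2059 CPM against 3318, 3521 and 908 CPM (log2 change 1.10 ± 0.50, adjusted p = 0.204). The αPD-1 replicate 3 and αPD-1 + corin replicate 3 thus crossed, and without the latter Timp1 was called (1.52, adjusted p = 0.0335). The share of all genes called without that sample is not given here. Timp2 was at 238, 194 and 285 CPM against 391, 417 and 396 CPM, with no overlap (0.73 ± 0.27, adjusted p = 0.135). Mmp19 did not overlap either, at 53.1, 20.2 and 74.2 CPM against 77.5, 79.7 and 84.1 CPM. Mmp9 was at 73.3, 10.1 and 111 CPM against 133, 33.5 and 10.4 CPM. The αPD-1 sums rest on 40 to 63 cells each and those of αPD-1 + corin on 76 to 612. The members' median log2 change was 0.70, against -0.01 over all genes.

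In monocytes and macrophages, none of the 8 members tested was called by edgeR, against 0.276% of 11947 genes (2190 with an unadjusted p under 0.05). DESeq2 called 2, Mmp14 and Mmp9. It also called more of all genes in this class than the 33 of edgeR, as given in the closing section. Its 2 calls are therefore not read as particular to the members. Mmp14 was at 76.7, 80.1 and 82.3 CPM with αPD-1 and at 105, 117 and 121 CPM with αPD-1 + corin. The samples within each group lay close together and the groups did not overlap. The log2 change was 0.67 ± 0.11 (adjusted p = 0.0566). Its value was 0.00443 without αPD-1 + corin replicate 3, and 0.000678 by DESeq2. Mmp9 was at 2.41, 0.635 and 0.894 CPM against 14.1, 27.6 and 1.96 CPM, where αPD-1 + corin replicate 3 lay within the αPD-1 range (3.65 ± 0.93, adjusted p = 0.134). Mmp13 was at 43.0, 26.7 and 30.9 CPM against 53.7, 58.5 and 35.8 CPM (0.72 ± 0.23, 0.181), with the same sample overlapping. Without that sample 5 of the 8 members were called, Mmp9 at an adjusted p of 0.00036 and Mmp13 at 0.00674, and the count of genes called rose from 33 to 2387.

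Neutrophil markers moved with the group in these sums. All 9 markers were detected in 5 of the 6 samples, with only Retnlg at 0 in αPD-1 replicate 1, and their summed level was 106 to 149 CPM with αPD-1 and 201 to 325 CPM with αPD-1 + corin. Their part in the Mmp9 values was not tested. The 8 fibroblast markers were at a summed level of 3.34 to 9.84 CPM against 6.65 to 16.6 CPM in the same sums, with Lum at 0 in all 3 αPD-1 samples, close to 0 beside their level in fibroblast-like cells.

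The remaining members of the monocytes and macrophages overlapped between the groups. Mmp12 was at 351, 119 and 264 CPM against 189, 195 and 163 CPM, so that the αPD-1 samples alone spanned the whole range. Mmp19 was at 44.8, 45.8 and 61.0 CPM against 60.9, 58.7 and 48.6 CPM, and Mmp8 at 26.7, 13.8 and 23.3 CPM against 17.7, 19.4 and 19.2 CPM. Timp2 was at 191, 176 and 145 CPM against 477, 211 and 127 CPM, and Timp1 at 17.7, 8.58 and 21.0 CPM against 42.8, 43.5 and 5.32 CPM. The states held different shares of this class in the groups. Resident-like macrophages, the highest in Timp2, were 7.08%, 6.95% and 5.26% of the monocytes and macrophages with αPD-1 and 44.5%, 29.9% and 6.65% with αPD-1 + corin. The 2 unnamed clusters held the largest share in each αPD-1 sample and in αPD-1 + corin replicate 3. The median log2 change of the 8 members was 0.69, against 0.01 over all genes.

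The states were then compared each on its own. In resident-like macrophages Mmp14 was called higher, the 1 call among 5 members tested, where 1.65% of 6845 genes were called. It was at 27.0, 12.4 and 40.8 CPM with αPD-1 and at 69.9, 99.7 and 88.0 CPM with αPD-1 + corin, without overlap (log2 change 1.91 ± 0.33, adjusted p = 0.0233). DESeq2 also called Mmp14 alone, and the share of all genes that it called is not given here. The αPD-1 sums rest on 60 to 83 cells each. The call was lost without αPD-1 replicate 1 (adjusted p = 0.165), αPD-1 replicate 2 (0.0933), αPD-1 + corin replicate 1 (0.0508) or αPD-1 + corin replicate 2 (0.0694), and also when cells with UMIs of another lineage were left out (1.64, adjusted p = 0.0951). Without αPD-1 + corin replicate 3 all 5 members tested were called, but the share of all genes called then is not given here. Since leaving out that sample raised the count over all genes in monocytes and macrophages, these 5 calls are not read as particular to the members. Neutrophil markers were at a summed level of 49.0 to 131 CPM against 72.1 to 252 CPM, with 2 to 8 of 9 markers detected against 4 to 9 and Retnlg at 0 in αPD-1 replicates 1 and 3, and their part was not tested. Fibroblast markers were near 0, at 2.72 to 7.74 CPM against 4.33 to 13.1 CPM, with Pdgfra at 0 in all 6 samples. Timp2 in these cells was at 783, 846 and 721 CPM against 773, 407 and 616 CPM and overlapped, as did Mmp19, whose log2 change was 0.72 ± 0.25 (adjusted p = 0.170).

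**Figure D4:**
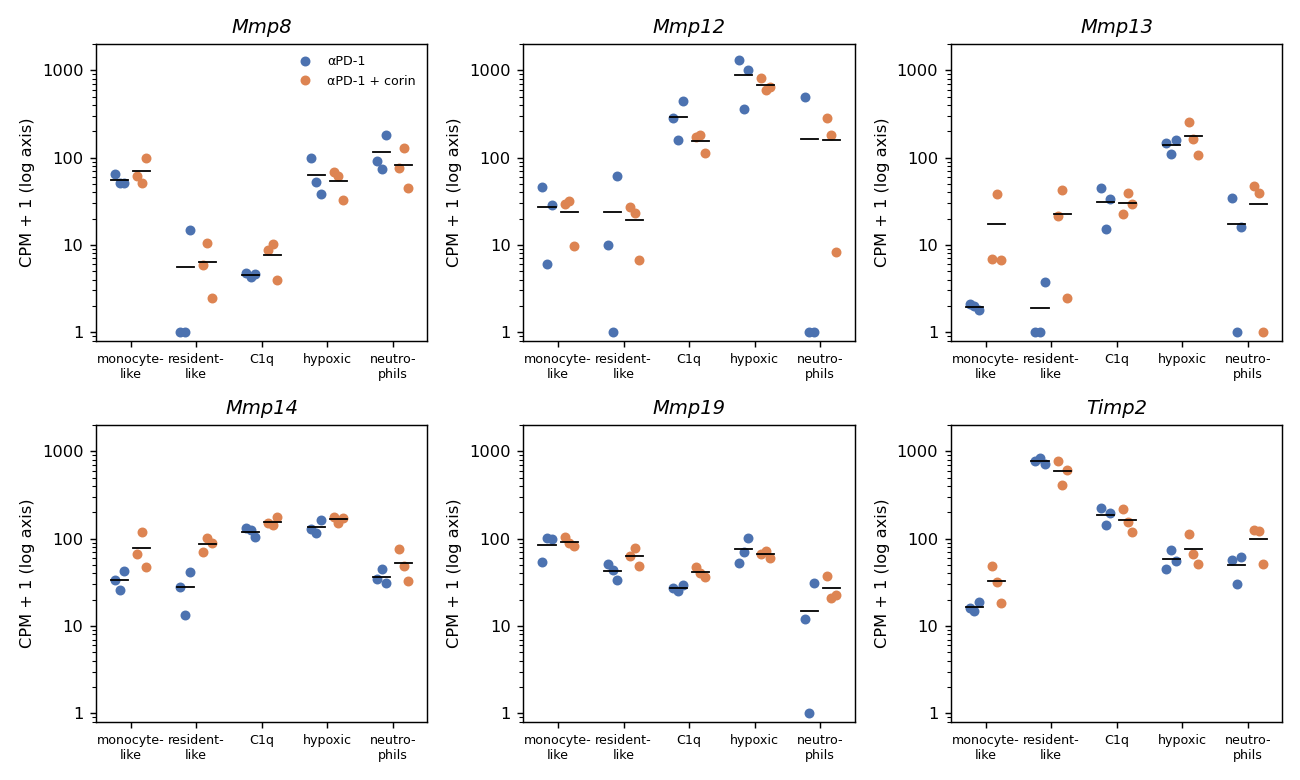
CPM of Mmp8, Mmp12, Mmp13, Mmp14, Mmp19 and Timp2 in monocyte-like cells, resident-like, C1q and hypoxic macrophages and neutrophils, as CPM + 1 on a log axis, with 1 point per αPD-1 or αPD-1 + corin sample and a black line at each group's mean. Mmp14 in resident-like macrophages is at 12.4 to 40.8 CPM with αPD-1 and 69.9 to 99.7 CPM with αPD-1 + corin, while Mmp12 in hypoxic macrophages overlaps between the groups.

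In monocyte-like cells none of 6 members tested was called, against 1.40% of 7760 genes (1328 with an unadjusted p under 0.05), and DESeq2 called 1, Mmp14. Mmp14 was at 32.3, 24.8 and 41.5 CPM with αPD-1 and at 66.0, 119 and 46.2 CPM with αPD-1 + corin, without overlap (log2 change 1.11 ± 0.31, adjusted p = 0.0869). Timp2 changed by 1.05 ± 0.35 (adjusted p = 0.149). Both were called without αPD-1 + corin replicate 3, at adjusted p = 0.00731 for Mmp14 and 0.00777 for Timp2. The shares of all genes called by DESeq2 and without that sample are not given here. These calls are therefore not read as particular to the members. Mmp8 was at 63.4, 49.6 and 49.9 CPM against 61.1, 50.7 and 97.1 CPM and overlapped.

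In C1q macrophages none of 6 members was called, against 0.501% of 9974 genes (1255 with an unadjusted p under 0.05), and DESeq2 called none. Mmp14 was at 130, 124 and 103 CPM against 152, 141 and 175 CPM, without overlap (0.46 ± 0.13, adjusted p = 0.187). Mmp19 did not overlap either, at 26.5, 24.0 and 28.5 CPM against 46.1, 39.2 and 35.1 CPM (0.71 ± 0.17, adjusted p = 0.114). Without αPD-1 + corin replicate 3 Mmp19 was called (adjusted p = 0.0336), and with no upper limit on genes its change was -0.049. How many of all genes were called without that sample is not given here. Mmp12 was at 280, 157 and 443 CPM against 173, 181 and 112 CPM and overlapped (-0.84 ± 0.32, adjusted p = 0.323), and its change was 0.33 when cells with UMIs of another lineage were left out.

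Hypoxic macrophages, the class with most Mmp12 and Mmp13, had no member called of 7 tested, where 0% of 6495 genes passed (514 with an unadjusted p under 0.05), and DESeq2 called no member. Mmp12 was at 1308, 357 and 1003 CPM against 812, 590 and 647 CPM. The αPD-1 samples spread from below the lowest to above the highest αPD-1 + corin sample. Mmp13 was at 147, 110 and 158 CPM against 256, 163 and 105 CPM and overlapped. In the unnamed macrophage clusters none of 6 members was called, against 0.0673% of 8912 genes (898 with an unadjusted p under 0.05), and DESeq2 called none. Mmp12 changed there by 0.88 ± 0.37 (adjusted p = 0.443) and Mmp14 by 0.49 ± 0.19 (adjusted p = 0.408), with overlap in both.

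In neutrophils none of 5 members tested was called, against 1.09% of 3932 genes (546 with an unadjusted p under 0.05), and DESeq2 called none. Mmp8 was at 89.4, 72.8 and 182 CPM with αPD-1 and at 75.3, 126 and 43.7 CPM with αPD-1 + corin. Mmp9 was at 112, 146 and 136 CPM against 105, 169 and 58.2 CPM. Both granule enzymes overlapped widely, although all cells together had most of both in αPD-1 + corin replicates 1 and 2, which had 876 and 1302 neutrophils. The αPD-1 samples had 17 to 21 neutrophils each, so that their values rest on few cells. Mmp12 shows this, with 492, 0 and 0 CPM against 286, 181 and 7.28 CPM, where the counts of 0 allow up to 43.7 and 45.4 CPM. Timp2 changed by 1.23 ± 0.52 (adjusted p = 0.325), and without αPD-1 + corin replicate 3 it was called (1.47, adjusted p = 0.0479). The share of all genes called without that sample is not given here.

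In dendritic cells none of 5 members tested was called, against 0.586% of 8877 genes (1045 with an unadjusted p under 0.05), and DESeq2 called none. Timp1 was at 11.1, 11.6 and 24.2 CPM against 58.9, 66.6 and 12.6 CPM (1.60 ± 0.56, adjusted p = 0.319), and Mmp19 at 8.32, 6.93 and 18.4 CPM against 26.4, 41.5 and 10.6 CPM (1.23 ± 0.51, adjusted p = 0.384). In both, αPD-1 + corin replicates 1 and 2 were above all others and replicate 3 lay among the αPD-1 samples. Without replicate 3 both were called, Timp1 at an adjusted p of 0.00069 and Mmp19 at 0.0184. The count of all genes called in dendritic cells also varied widely when 1 sample was left out, as given in the closing section. These calls are therefore not read as particular to the members. Fibroblast markers in the same sums were at 1.85 to 4.62 CPM against 4.70 to 38.6 CPM, and their part in the Timp1 values was not tested.

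Melanoma-like cells had no call among 3 members tested, where 0% of 9466 genes passed (688 with an unadjusted p under 0.05), and DESeq2 called no member. Mmp14 was at 75.8, 55.9 and 99.6 CPM against 120, 91.2 and 66.9 CPM and Timp2 at 125, 136 and 150 CPM against 167, 133 and 102 CPM, both with overlap. Timp1 did not overlap, at 11.4, 2.66 and 7.50 CPM against 17.3, 28.9 and 11.9 CPM (1.23 ± 0.46, adjusted p = 0.649). Endothelial-like cells, with 11 to 49 cells per sample, had no call among 3 members, against 0.115% of 3470 genes (682 with an unadjusted p under 0.05), and DESeq2 called none. Mmp14 was there at 365, 350 and 482 CPM against 461, 653 and 273 CPM.

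**Figure D5:**
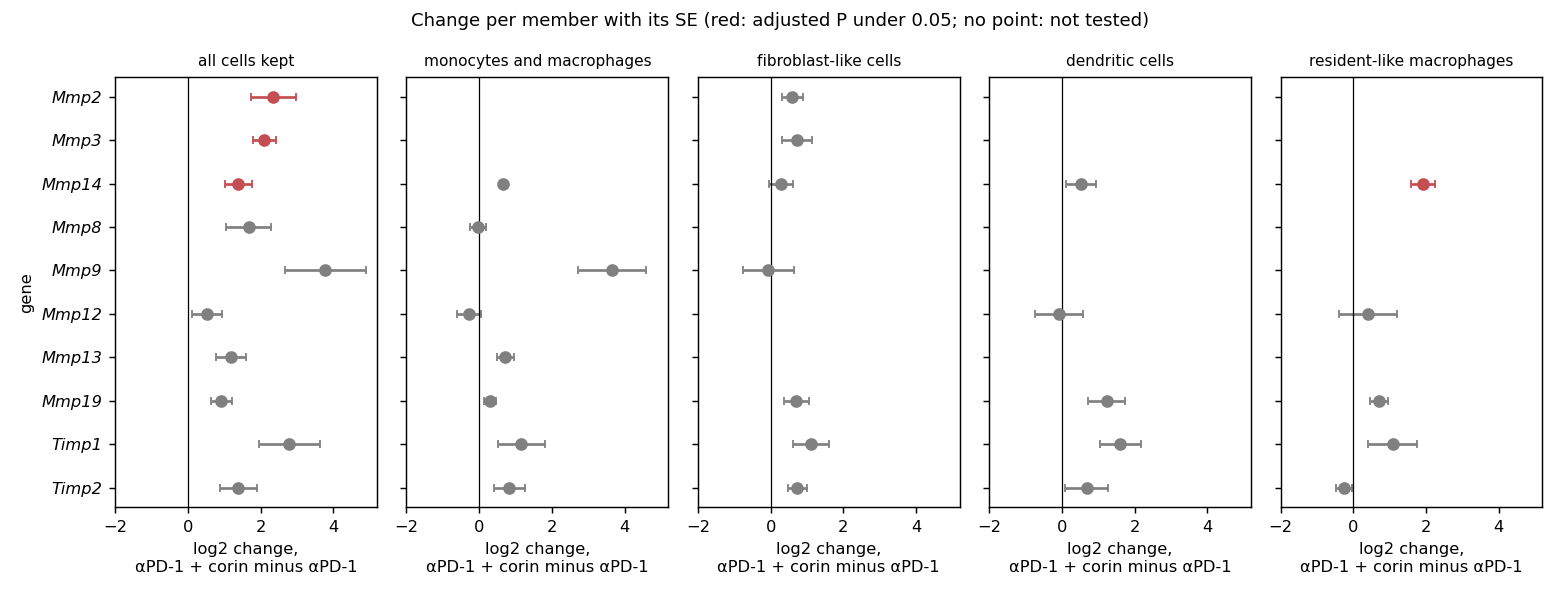
Log2 change (αPD-1 + corin minus αPD-1) with its standard error for each member tested in 5 sets of cells, with red points for calls at an adjusted p under 0.05 and no point where a member was not tested. The 4 red points are Mmp2, Mmp3 and Mmp14 in all cells (1.39 to 2.35) and Mmp14 in resident-like macrophages (1.91).

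Mmp14 was the member whose αPD-1 + corin samples most often lay above all αPD-1 samples, in all cells, in monocytes and macrophages, and in the monocyte-like, resident-like and C1q states. These sums overlap in their cells and are not independent of one another. The share of all genes without overlap in these sums is not given here, so the pattern is not read as particular to Mmp14. In hypoxic and unnamed macrophages, neutrophils, dendritic cells, fibroblast-like, melanoma-like and endothelial-like cells its groups overlapped.

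Whether the effect differed between monocytes and macrophages and dendritic cells was tested as an interaction. None of 8 members passed, and 3 of 11502 genes did (980 with an unadjusted p under 0.05). Mmp19 was nearest, with an effect that was 0.91 ± 0.40 larger in dendritic cells on the log2 scale (adjusted p = 0.575). In an alternative chosen after seeing the data, each sample was left out of this test in turn, and without αPD-1 + corin replicate 3 Mmp19 passed (1.21 ± 0.32, adjusted p = 0.0371). In that fit 484 of 11810 genes passed, against 3 of 11502 with all samples. The call is therefore not read as particular to Mmp19.

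The wider proteolysis pathway was followed with 4 lists. In all cells, where 16.1% of all genes tested were called, 2 of 14 ADAM and ADAMTS proteases tested were higher with αPD-1 + corin, Adamts5 (log2 change 2.81 ± 0.68, adjusted p = 0.0416), an aggrecanase, and Adamts2 (1.58 ± 0.34, 0.0334), which trims procollagen. Of 11 cofactors and binding partners, 2 were higher, Lcn2 (3.69 ± 0.62, 0.0214) and the metalloproteinase inducer Bsg (0.97 ± 0.24, 0.0436). None of 7 other matrix metalloproteinases and none of 2 other inhibitors tested passed, and no gene of the lists was lower. For the lists with calls these counts lay near the share of all genes. Within cell classes Lcn2 alone was called. In fibroblast-like cells it was at 21.1 ± 10.7 CPM with αPD-1 and 315 ± 81.7 CPM with αPD-1 + corin (SD, n = 3 each, 3.88 ± 0.38, adjusted p = 0.000805). Neutrophil markers in these sums were at 22.7 to 51.3 CPM against 64.1 to 368 CPM, and their part was not tested. In monocyte-like cells it was at 35.0 ± 12.9 against 99.8 ± 43.4 CPM (1.60 ± 0.30, adjusted p = 0.0238), where the same markers were at 211 to 290 CPM against 518 to 1069 CPM.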

How the data were processed

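The authors mapped 5′ single-cell libraries with Cell Ranger 8.0 to GRCm39 and deposited UMI counts per gene and barcode, without normalization, for the barcodes called as cells. Seurat is also in the submitters' processing notes. The counts were used as deposited, and 31674 of the 32285 gene identifiers are in GENCODE vM39, from which positions and promoters were taken.

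Barcodes passed with between 600 and 4000 genes detected and no more than 10% of UMIs from mitochondrial genes. Scrublet (scanpy 1.11.5) scored doublets, and since its own threshold called none the highest scores of each sample were removed. Cells were normalized with SCTransform (Seurat 5.3.0, sctransform 0.4.2, 3000 variable genes without the members) and clustered on 20 principal components at resolution 0.8, without batch integration. A class name needed 3 markers, each in at least 10% of cells and at 1.5 times the mean of the other clusters, a rule set after the data were seen. The members and gene lists were chosen with earlier results of these data known. The genes named besides the members are, per list and class, up to 2 each way with the largest fold among those called and, per member, the 3 genes nearest over the sums. A further list of pathway genes is not reported here.

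UMIs were summed per sample and class (at least 10 cells) and tested with edgeR 4.0.16 (TMM, filterByExpr) in R 4.3.3, with DESeq2 1.42.0 as an alternative. The shares of UMIs per class with each sample left out were added after the data were seen. The other alternatives were RLE size factors, no filter, a replicate block, each sample left out, other limits on cells, LogNormalize and other clusterings. The study's own test compares cells, which are not replicates. In simulated counts of monocytes and macrophages with 200 of 11734 genes changed 4-fold, the test found 196 with 18 false calls. The changed genes were drawn only from genes above a limit on the mean count. Noise was independent between genes, with no outlying sample. The simulation therefore does not give the rate for members with few UMIs or for sums with an outlying sample. The limits given for counts of 0 (3 counts) cover counting error only.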

Additional observations from a re-analysis of the deposited data

How the results depend on the processing

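Counts of members called depended on the test, the filter on low counts and single samples, most of all on αPD-1 + corin replicate 3. In all cells 3 of 10 members were called by edgeR, 9 by DESeq2, 1 with a replicate block, 1 with cells above 4000 genes kept, and 0 to 9 when each sample was left out in turn. In monocytes and macrophages the count was 0, and it was 2 with DESeq2, 4 with no filter on low counts, 1 at resolution 0.4, 1 at resolution 1.2 and 0 to 5 without 1 sample. In monocyte-like cells it was 0, with 1 by DESeq2, 4 with no filter, 1 with the marker genes left out of clustering and 0 to 2 without 1 sample. In resident-like macrophages it was 1, with 5 under no filter, 0 with at least 200 genes per cell, 0 at resolution 1.2, 0 with cells that had UMIs of another lineage left out, and 0 to 5 without 1 sample. With no filter on low counts 4 members were called in C1q macrophages, 1 in hypoxic macrophages, 1 in unnamed macrophages and 2 in dendritic cells, where the main count was 0. Without 1 sample the counts were 0 to 1 in C1q macrophages, neutrophils and fibroblast-like cells, 0 to 2 in dendritic cells and 0 to 1 for the interaction. RLE size factors changed no count of members, and in melanoma-like and endothelial-like cells no alternative that was run gave a call. Of all genes, 33 were called in monocytes and macrophages, against 286 with DESeq2, 827 with no filter, 15 with no doublet removal, 11 with LogNormalize, 51 at resolution 0.4, 5 with cells of another lineage's UMIs left out and 2 to 2387 without 1 sample. In dendritic cells 52 genes were called, against 516 with no filter, 101 with no upper limit on genes, 81 with LogNormalize, 3 with cells of another lineage's UMIs left out, 21 with the replicate block and 12 to 494 without 1 sample. The log2 change turned direction for Mmp12 in C1q macrophages (0.33, cells with UMIs of another lineage left out), Mmp19 in C1q macrophages (-0.049, no upper limit on genes) and Mmp12 in unnamed macrophages (-0.083, resolution 1.2), none of them called in the main test. Outside monocytes and macrophages and dendritic cells, the member counts under these alternatives have no count of all genes beside them. They are not read as results about the members. The cause of these differences was not tested.

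The replicate numbers did not pair the samples. The correlation between same-numbered samples of the 2 groups in their deviations from the group means was between -0.201 and 0.0835 over the classes. With the replicate block Mmp3 stayed called in all cells, while Mmp2 (2.04, adjusted p = 0.0651) and Mmp14 (1.27, adjusted p = 0.100) were not, and the block changed no other count of members.

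With no upper limit on genes, the class shares of UMIs became 89.3% for Mmp2, 98.6% for Mmp3 and 24.4% for Mmp14 in fibroblast-like cells, 15.6% for Mmp8 and 15.0% for Mmp9 in neutrophils, and 55.5% for Mmp19 and 25.5% for Timp2 in monocytes and macrophages, while the shares of cells with a UMI in neutrophils became 16.05% for Mmp8 and 28.9% for Mmp9. With each sample left out in turn, chosen after the data were seen, the shares of UMIs ran from 22.8% to 44.3% for Mmp14 and 80.8% to 91.8% for Timp1 in fibroblast-like cells, 25.5% to 54.0% for Mmp8 and 29.5% to 72.8% for Mmp9 in neutrophils, and 58.1% to 69.3% for Timp2 in monocytes and macrophages. The lowest for Mmp8 and Mmp9 came without αPD-1 + corin replicate 2, and the other lowest values without αPD-1 + corin replicate 1. Without thinning, the shares of cells with a UMI were 72.6% for Mmp2, 31.3% for Mmp3, 82.4% for Mmp14 and 78.4% for Timp1 in fibroblast-like cells, 21.1% for Mmp8 and 25.6% for Mmp9 in neutrophils, and 11.2% for Mmp12, 6.34% for Mmp13, 15.0% for Mmp19 and 29.8% for Timp2 in monocytes and macrophages.

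Some alternatives gave no value. No C1q class was formed with LogNormalize, at resolution 0.4 or 1.2, or with the marker genes left out, no hypoxic class with either other limit on genes, and no unnamed class with LogNormalize. The interaction was repeated only with samples left out. Leaving out cells with UMIs of another lineage left too few neutrophils, fibroblast-like or endothelial-like cells to test, and with no upper limit on genes too few neutrophils were left in the αPD-1 samples. Sums of 17 to 63 cells in αPD-1 neutrophils and fibroblast-like cells limit what those comparisons could detect.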
